A study of Caenorhabditis elegans with 2 samples.

Results

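The small heat shock protein genes examined were hsp-16.1, hsp-16.2, hsp-16.11, hsp-16.41, hsp-16.48, hsp-16.49, hsp-12.6, hsp-17, hsp-25 and hsp-43 of Caenorhabditis elegans. They were a fixed list of 10 of the 19973 protein-coding genes on the nuclear chromosomes, defined by name, with no binding value in the rule. Binding of HIF-1, the hypoxia-inducible factor, was mapped near them by ChIP-seq in whole L4 larvae of both sexes, collected 52 h after release from starvation-synchronized L1. The strain, OR3349, stably expresses HIF-1 fused at its C-terminus to GFP-FLAG, and chromatin was pulled down through GFP. The 2 biological replicates formed the only group, and no untreated, hypoxic, heat-shocked or tag-free group was analysed here. Growth temperature, oxygen and copy number of the transgene were not stated in the sources used here. Whole larvae mix all tissues, so the cells in which a region was bound are unknown.

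Small heat shock proteins are chaperones with an alpha-crystallin domain that hold unfolding proteins in a soluble state. In C. elegans the hsp-16 genes are known for near silence in unstressed animals and strong induction by heat through HSF-1, the heat shock transcription factor, which reads repeated heat shock elements next to their starts. Others of the family, such as hsp-12.6, hsp-25 and hsp-43, are known to be expressed without heat, and hsp-12.6 is a classic target of DAF-16, the FOXO factor of insulin signalling. HIF-1 pairs with AHA-1 and reads the hypoxia response element, whose core is ACGTG or GCGTG. Where HIF-1 meets these stress-response promoters was the question put to the data.

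None of the 10 genes held a reproducible peak. A gene was scored when the summit of a region lay between 2000 bp upstream of its annotated start and its end. The reproducible peaks are those that passed the irreproducible discovery rate (IDR) procedure, and 17% of all protein-coding genes held one by the same rule. The candidate lists, of 30000 regions each, are more permissive and include background. The pooled list also holds regions that passed IDR, so shares and medians over all pooled candidates include these. At this permissive level 6 of the 10 genes held a pooled candidate region (hsp-16.49, hsp-16.2, hsp-16.41, hsp-12.6, hsp-25 and hsp-43), beside 48.4% of all protein-coding genes. A candidate of each replicate was present at 4 of the 10 (hsp-16.2, hsp-16.41, hsp-25 and hsp-43), beside 45.8%. In both counts hsp-16.2 and hsp-16.41 shared 1 promoter region, so they are not separate observations. The candidate counts stand near the background shares, and no count was tested. The genes were also short, with a median length of 661 bp against 2027 bp for all protein-coding genes, which shortens the window searched. In the 2000 bp upstream alone, the counts were 0 of 10 for reproducible peaks, where 14% of all genes held one, and 4 of 10 for pooled candidates, where the share of all genes was 39%.

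The 6 hsp-16 genes are arranged in 3 divergent pairs, each around 1 short promoter on chromosome V, so a region there belongs to both genes of a pair. The pair hsp-16.2 and hsp-16.41 stands alone, at V:1804334-1804957 on the minus strand and V:1805178-1805875 on the plus strand. The other 2 pairs, hsp-16.1 with hsp-16.48 and hsp-16.49 with hsp-16.11, lie beside each other between V:9087293 and V:9090604. The sequences between the starts are shown because they carry the heat shock elements and because the last 2 pairs cannot be told apart by them. Capitals mark paired heat shock units, GAANNTTC or TTCNNGAA, and sequences come from the RefSeq WBcel235 assembly, the same as ce11. The promoter of hsp-16.2 and hsp-16.41 is the whole interval V:1804958-1805177 on the plus strand. That of hsp-16.1 and hsp-16.48 is V:9087833-9088080 on the plus strand, with 50 bp beside each start left out.
hsp-16.2/hsp-16.41: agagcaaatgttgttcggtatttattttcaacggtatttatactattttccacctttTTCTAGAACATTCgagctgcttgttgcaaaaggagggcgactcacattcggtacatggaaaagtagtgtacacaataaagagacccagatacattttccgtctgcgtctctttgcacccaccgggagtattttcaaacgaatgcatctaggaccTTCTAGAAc
hsp-16.1/hsp-16.48: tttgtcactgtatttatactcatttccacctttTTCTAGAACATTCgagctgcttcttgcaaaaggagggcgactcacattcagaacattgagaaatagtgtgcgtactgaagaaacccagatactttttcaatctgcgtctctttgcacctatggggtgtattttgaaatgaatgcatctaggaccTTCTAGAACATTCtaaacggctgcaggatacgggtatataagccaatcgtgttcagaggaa

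The promoter of hsp-16.11 and hsp-16.49 (V:9089817-9090064, minus strand) differed from that of hsp-16.1 and hsp-16.48 at 0 positions. The longest run of bases shared by the hsp-16.2/hsp-16.41 and hsp-16.1/hsp-16.48 promoters was 33 bp and spanned the first block of capitals. None of the 3 shared promoters held the core ACGTG or GCGTG in the 250 bp upstream of either gene. Heat shock unit pairs were counted 4 times within 250 bp upstream of hsp-16.1, hsp-16.11 and hsp-16.2, 3 times at hsp-16.41, and 2 times at hsp-16.48 and hsp-16.49, overlapping matches included. Where a shared promoter is shorter than 250 bp, the search reached into the neighbouring gene. In the 348 bp and 310 bp promoters, the search from hsp-16.48 and hsp-16.49 stopped short of the far end. The compared stretch of each of these promoters held 4 matches in all, so partners of 1 promoter do not differ in its elements.

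**Figure D1:**
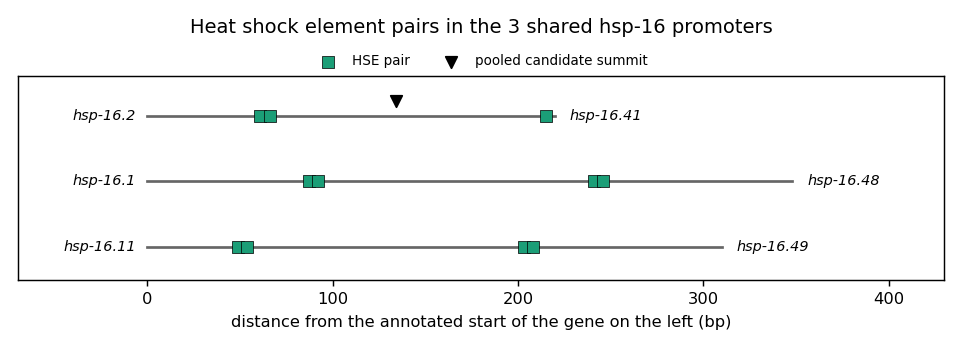
Position of heat shock element (HSE) pairs, GAANNTTC or TTCNNGAA, in the 3 shared hsp-16 promoters, with the distance in bp from the annotated start of the gene named on the left. Squares are matches and the triangle is the summit of the pooled candidate region, present in the 220 bp hsp-16.2/hsp-16.41 promoter and in neither of the others (348 bp and 310 bp), with the matches 64 to 78 bp from it.

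At hsp-16.2 and hsp-16.41, which encode heat-inducible chaperones and of which hsp-16.2 is the common reporter of the heat response, 1 candidate region sat on the shared promoter in every candidate list. The pooled region (V:1804883-1805298) had its summit 134 bp upstream of hsp-16.2 and 87 bp upstream of hsp-16.41. Its deposited signal, a value relative to control that is not scaled between lists, was 66.8 in the pooled list, where it ranked 5390 of 30000. Replicate 1 gave 26.6 (rank 8314, summit 9 bp away) and replicate 2 gave 41.5 (rank 5522, summit 15 bp away). Both replicates thus placed a summit between the same pair of starts, well inside the upper part of their lists. The pooled signal was 70.3% of the lowest signal that passed IDR (95.1), with a deposited q-value of 0.00121. The q-value was 0.0917 in replicate 1 and 0.000815 in replicate 2. The 3 heat shock unit pairs lay 69, 64 and 78 bp from the summit, and the hypoxia core was absent within 50 bp of it.

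A second pooled candidate in the hsp-16.41 window had its summit beyond hsp-16.2, 1176 bp upstream of hsp-16.41 and nearer to the start of srt-41, a chemoreceptor gene. It was weak, with a pooled signal of 22.3 (rank 21674) and 16.38 in replicate 1. Replicate 2 held no candidate within 1000 bp of that summit. The nearest reproducible peak on chromosome V was 16518 bp from the hsp-16.2 start and 16297 bp from that of hsp-16.41. It had a signal of 102 and lay 104 bp from the start of mrpl-39, a mitochondrial ribosomal protein gene.

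The 4 genes hsp-16.1, hsp-16.48, hsp-16.49 and hsp-16.11 held no candidate summit in either of their shared promoters, in any of the 4 lists. These promoters are 348 bp (V:9087783-9088130) and 310 bp (V:9089767-9090076) long. The genes lie in a perfect inverted repeat: V:9086861-9088741 and V:9089156-9091036, 1881 bp each, were 100% identical on opposite strands, with 414 bp between them. A sequenced fragment from within an arm therefore fits both places equally. Of the 50-base stretches in each window, 18.97% occurred once in the genome at hsp-16.1, 29.9% at hsp-16.48, 25.9% at hsp-16.49 and 18.7% at hsp-16.11. In the windows of the other 6 genes the share was 98.0% to 100%. With stretches of 36 bases the values at the repeat ran from 18.01% to 29.8%, and with 100 bases from 21.1% to 30.6%.

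Candidate regions on repeated sequence were rare across the whole genome. Unique 50-base stretches started at 93.5% of nuclear genome positions, and 98.6% of pooled candidate summits and 98.2% of reproducible summits were centred on one. Among the 431 protein-coding genes whose window was less than 50% unique, 35 held a pooled candidate summit (8.12%) and 5 held a reproducible one. The lack of a candidate in the shared promoters of these 4 genes therefore cannot be told apart from a lack of assignable reads. The labels do not say how reads with several equal matches were treated, and the part of such reads in this gap was not tested. Leaving out the 4 genes was an alternative chosen after seeing the data. Of the remaining 6 genes, 0 held a reproducible peak (17% of all genes), 5 a pooled candidate (48.4%) and 4 a candidate of both replicates (45.8%). In both candidate counts hsp-16.2 and hsp-16.41 again shared 1 region.

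Just outside the repeat, candidates appeared again. The only one inside a window of these genes had its summit 1930 bp upstream of hsp-16.49 (V:9091488-9091903), with a pooled signal of 17.9 (rank 26837) and 25.5 in replicate 1. Replicate 2 held none within 100 bp, and the nearest start, 649 bp away, was that of T27E4.1. On the other side, a summit 2180 bp upstream of hsp-16.48 had a pooled signal of 41.3 and lay outside its window. The nearest reproducible peak on the right (V:9094223-9094638) lay 4665 bp upstream of hsp-16.49, with a signal of 138, 38.5 in replicate 1 and 102 in replicate 2, and held 1 hypoxia core. Its nearest start was that of F21C10.10, 1836 bp away. The nearest on the left was 6091 bp from the hsp-16.1 start, with a signal of 108.

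**Figure D2:**
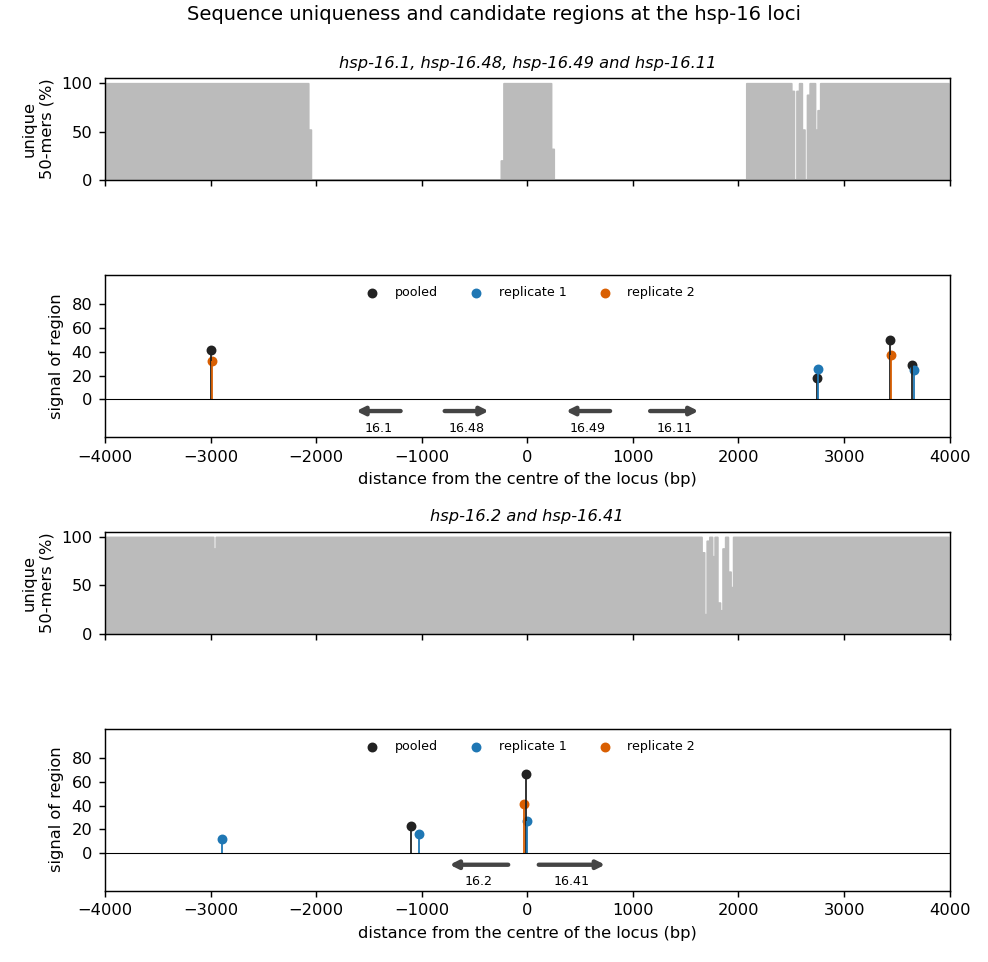
Share of unique 50-base stretches (%) and deposited signal of candidate regions against distance from the centre of each hsp-16 locus (bp); arrows are genes, points are region summits of the pooled list (black), replicate 1 (blue) and replicate 2 (orange), and signal is not scaled between lists. Candidates flank the inverted repeat of hsp-16.1, hsp-16.48, hsp-16.49 and hsp-16.11, where no stretch that lies fully within an arm is unique, and 1 lies between hsp-16.2 and hsp-16.41 in all 3 candidate lists.

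The hsp-25 gene (X:6034463-6039644, minus strand, 4 transcripts with different ends), which encodes a muscle and pharynx chaperone that is not heat-inducible, held the most candidates. Its window of 7182 bp contained 8 of the 14 distinct pooled summits found at all 10 genes, 10 of replicate 1 and 9 of replicate 2. This is 1.11 pooled candidates per kb, against 0.299 per kb of the genome. The genome value spans all sequence, and the density in the windows of all protein-coding genes was not computed. It is therefore no like background, and the density is not shown to be particular to hsp-25. The hsp-25 gene is also the longest of the list at 5182 bp. The sequences at 3 of its regions and at the reproducible peak beyond its window are shown, because the hypoxia core is present at only some of them. Each is 101 bases on the plus strand centred on the summit, with the core in capitals on either strand (CACG followed by C or T is its reverse complement). They are the intronic region (X:6038163-6038263), the upstream region (X:6040871-6040971), the region at the start (X:6039659-6039759) and the reproducible peak (X:6042226-6042326).
hsp-25 intron: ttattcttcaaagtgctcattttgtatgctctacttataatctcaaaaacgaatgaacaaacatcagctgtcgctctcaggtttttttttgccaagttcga
hsp-25 upstream: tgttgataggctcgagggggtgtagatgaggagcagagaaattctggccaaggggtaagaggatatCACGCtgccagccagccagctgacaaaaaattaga
hsp-25 start: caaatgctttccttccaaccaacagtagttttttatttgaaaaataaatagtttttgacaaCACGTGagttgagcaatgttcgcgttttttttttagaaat
hsp-25 reproducible peak: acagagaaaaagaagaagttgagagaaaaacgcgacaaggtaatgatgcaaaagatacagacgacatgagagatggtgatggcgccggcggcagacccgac

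The strongest region inside the window lay in an intron, 1431 bp downstream of the outermost start (X:6038005-6038420), with a pooled signal of 70.8 (rank 5044) and a q-value of 0.000496. Its summit was 512 bp from the nearest annotated hsp-25 transcript start. Replicate 1 gave 24.1 (rank 9995, q-value 0.178) at 7 bp from the pooled summit. Replicate 2 gave 55.04 (rank 3902, q-value 0.000109) at 106 bp. The replicates therefore agreed on the intron but not within 100 bp on the summit, and no hypoxia core was present within 50 bp. The upstream region (X:6040713-6041128) had its summit 1277 bp before the start, with a pooled signal of 68.0 (rank 5294). Replicate 1 gave 26.95 (q-value 0.0832) and replicate 2 gave 38.5 (q-value 0.00107), with summits 15 bp and 1 bp away. It held 1 hypoxia core, GCGTG read on the minus strand.

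The region at the outermost start of hsp-25 (X:6039501-6039916) had its summit 65 bp upstream. Its pooled signal was 45.6 (rank 8889, q-value 0.0374). Replicate 1 gave 18.4 (rank 16343, q-value 0.486), 14 bp from the pooled summit. Replicate 2 gave 24.2 (rank 10947, q-value 0.0771), 10 bp from it. A stronger replicate 2 region had its summit 125 bp downstream of the start, in the 5′ UTR, at 30.3 (rank 8137, q-value 0.0106). That summit had no hypoxia core within 50 bp. The core at the pooled summit is the palindrome CACGTG, which matches ACGTG on both strands. A further region 1550 bp upstream had a pooled signal of 40.2 (rank 10473, q-value 0.0940). It was near the bottom of the list of replicate 1, at 12.4 (rank 28987, q-value 0.863), and had 22.8 in replicate 2 (rank 11817, q-value 0.114). Upstream of its outermost start, hsp-25 thus held 3 pooled regions with summits within 100 bp in both replicates. Each was below the IDR threshold, at 71.5%, 47.96% and 42.3% of the lowest signal that passed. The regions 1277 bp and 1550 bp upstream overlapped. In replicate 1 none of the 3 had a q-value at or below 0.05.

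Inside the gene, an intronic region 4666 bp downstream of the outermost start and 798 bp from the nearest one had a pooled signal of 49.2 (rank 8016). It was stronger by rank in replicate 1, at 41.4 (rank 3809), than the nearest region of replicate 2, at 24.0 (rank 11067), whose summit was 244 bp away in the 3′ UTR and no match within 100 bp. The other 3 pooled regions of the window had signals of 29.6, 26.3 and 19.3, the last of them in an exon of the non-coding RNA gene C09B8.12. The summit of the region at 29.6 was in a coding exon, 44 bp from an annotated hsp-25 transcript start.

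A reproducible peak lay just outside the window, 2632 bp upstream of hsp-25 (X:6042068-6042483). Its signal was 145 in the pooled list (rank 1985), 56.3 in replicate 1 (rank 2339) and 96.4 in replicate 2 (rank 1813). Its summit was intergenic and no protein-coding start was nearer to it than that of hsp-25. It had no hypoxia core within 50 bp. A weaker candidate 2833 bp upstream, at 55.9, stood next to it. The distance from a summit to a start is a position only, since transcripts were not measured.

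**Figure D3:**
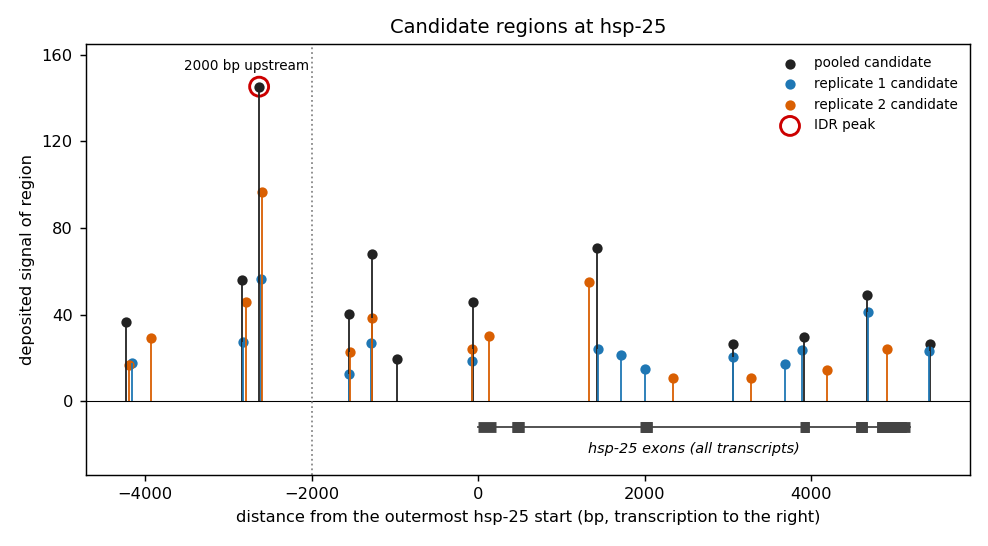
Deposited signal of candidate regions around hsp-25 against the distance of the summit from the outermost annotated start (bp, transcription to the right); points are the pooled list (black), replicate 1 (blue) and replicate 2 (orange), the red ring marks the reproducible peak, boxes are exons, and signal is not scaled between lists. The reproducible peak at 145 lies left of the dotted line at 2000 bp upstream, and regions inside the window reach 70.8.

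The hsp-12.6 gene (IV:9446229-9447228, minus strand), a DAF-16 target that encodes one of the smallest members of the family, held 1 pooled candidate. It lay in a coding exon (IV:9446389-9446804), with a pooled signal of 16.8 (rank 28371) and 19.2 in replicate 1, and replicate 2 had no summit there. This is near the bottom of the pooled list. Replicate 1 alone placed a region 295 bp upstream, with a signal of 21.8 (rank 12027). Its sequence is shown because it was the only summit in the windows of the 10 genes, in any of the 4 lists, with a hypoxia core and a heat shock unit pair together (IV:9447473-9447573, plus strand, both in capitals).
hsp-12.6 replicate 1: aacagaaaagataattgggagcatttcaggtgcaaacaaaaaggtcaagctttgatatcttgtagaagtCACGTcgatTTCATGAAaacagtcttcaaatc

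Reproducible peaks were present on the other side of hsp-12.6. Within 5000 bp there were 5, all beyond its 3′ end, on the side of hsp-12.3, a neighbouring gene of the same family. Only 2 of the 5 lay in the window of hsp-12.3, and the others lay past its end. The peak nearest to hsp-12.6 had its summit 623 bp beyond the end of hsp-12.6 and 99 bp from the start of hsp-12.3. Its signal was 96.1 (rank 3487), just above the lowest reproducible value. Replicate 1 gave 29.5 and replicate 2 gave 70.7. The strongest of the 5, at 348 (rank 451), was nearest to F38E11.9, with 148 in replicate 1 and 204 in replicate 2. The GTAAACA element of DAF-16 was absent from the 250 bp upstream of hsp-12.6, while CACGTG was present there.

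The hsp-17 gene (V:8384799-8385929, minus strand) had no pooled candidate. Replicate 1 alone held a region, in a coding exon, with a signal of 14.5 (rank 23697). The nearest reproducible summit was 17485 bp from its start. Its 250 bp upstream held 1 heat shock unit pair.

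At hsp-43 (X:6233151-6235543, minus strand), the gene of a large family member found in body wall and vulva, both pooled candidates lay in coding exons and were weak. Their signals were 20.9 (rank 23231), 760 bp downstream of the start, and 16.495 (rank 28819), 1383 bp downstream. Replicate 1 gave 15.3 at the first and replicate 2 gave 19.3 at the second, so the replicates did not share a summit. A count of genes with a summit of both replicates close to the same pooled summit left 3 of the 10, beside 33.2% of all protein-coding genes. They were hsp-25 and, through 1 shared region, hsp-16.2 and hsp-16.41. The reproducible peak nearest to hsp-43 was 4925 bp upstream, with a signal of 165.3, and lay nearest to got-2.2.

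Across the list, the 14 pooled summits had signals from 16.495 to 70.8 with a median of 28.0, beside a median of 30.5 over all pooled candidates. Their ranks ran from 5044 to 28819. A q-value at or below 0.05 was deposited for 5 of the 14, and for 30.9% of all pooled candidates. Of the 14 summits, 8 lay at hsp-25. The 5 with such a q-value were all at hsp-25 except the region shared by hsp-16.2 and hsp-16.41, so these values mostly describe hsp-25. For scale, the strongest region of the genome, near egl-9, whose product hydroxylates HIF-1 and so leads to its breakdown, had 7830, and that of nhr-57, a known HIF-1-dependent gene, had 4447. Every region in the windows of the 10 genes fell below the lowest reproducible peak.

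**Figure D4:**
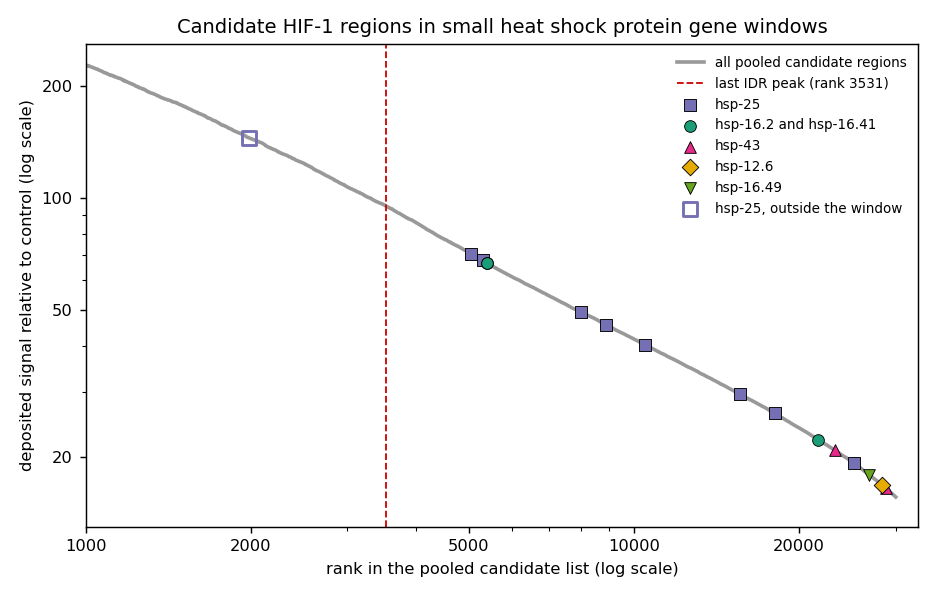
Deposited signal (log scale) against rank in the pooled candidate list (log scale), ranks from 1000 onward; the grey line is all pooled regions, filled symbols are the 14 summits in the windows of the small heat shock protein genes, and the open square is the reproducible peak 2632 bp upstream of hsp-25. The filled symbols all lie right of the dashed line that marks the last reproducible peak, at signals of 16.495 to 70.8.

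Sequence motifs at these summits were described by counts alone. The hypoxia core, ACGTG or GCGTG on either strand, lay within 50 bp of 2 of the 14 pooled summits (14.3%), both at hsp-25. The share was 23.3% of all pooled summits and 42.1% of all reproducible ones. A heat shock unit pair lay within 50 bp of 0 of the 14, beside 10.2% of pooled and 7.14% of reproducible summits. In the 250 bp upstream, 7 of the 10 genes had one, where 27.1% of all protein-coding genes did. They were hsp-17 and the hsp-16 genes, which share promoters in pairs, so they are not separate observations. The identical promoters of hsp-16.1/hsp-16.48 and hsp-16.11/hsp-16.49 held no summit, and hsp-17 had no pooled summit. The 2 counts therefore concern largely different sequences. The hypoxia core was present in the 250 bp upstream of 2 of the 10 genes, hsp-12.6 and hsp-25, against 35.9% of all genes. GTAAACA was present upstream of 0 of the 10, against 4.36%. A match is no evidence of binding, and its absence concerns only these letters in this window.

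Other genes of the alpha-crystallin family gave a different count. Of 8 further members, 4 held a reproducible peak: hsp-12.3, sip-1, ZK1128.7 and Y55F3BR.6, where 17% of all protein-coding genes held one. Whether this differs from the 0 of 10 above was not tested. Of those 10, 4 lie in the inverted repeat, where at most 29.9% of 50-base stretches in a window were unique. The other 6 also held 0. Both lists were chosen with earlier results of these data known. At hsp-12.3 the strongest had a signal of 128, with 74.1 in replicate 1, and the nearest summit of replicate 2 was 196 bp away, at the weaker neighbouring peak. At sip-1, which encodes a small heat shock protein of oocytes and embryos, it had 143, with 52.3 and 92.0, but the nearest start was that of sly-1. ZK1128.7 had 121, with 55.3 and 58.8, at 85 bp upstream of its start. Y55F3BR.6 had 182, with 94.6 and 83.0, at a tRNA gene. Each of these 4 summits held at least 1 hypoxia core within 50 bp, as did 42.1% of all reproducible summits.

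Regulators of the heat shock response were counted in the same way, and 3 of the 5 that are protein-coding in the annotation held a reproducible peak, beside 17% of all genes. At hsf-1, the activator of the hsp-16 genes, the summit lay 1946 bp upstream with a signal of 123, and 51.0 and 77.5 in the replicates. At daf-16, a gene of 26206 bp with 37 pooled candidates, 7 reproducible summits were present, the strongest in an intron with 182, and 63.5 and 121 in the replicates. At ddl-1, which encodes a partner of the HSF-1 inhibitor HSB-1, the signal was 223, with 58.2 and 159, but the nearest start was that of zyg-1. The strongest summits at these 3 genes held 0 hypoxia cores within 50 bp. The inhibitor gene hsb-1 and the partner gene ddl-2 held pooled candidates only, with signals of 25.02 and 39.5.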

How the data were processed

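HIF-1-GFP ChIP-seq regions of 2 biological replicates were read from the deposited ce11 lists: 3531 IDR-thresholded peaks, and 30000 candidate regions each for pooled data, replicate 1 and replicate 2. Per the file lists among the labels, regions were called against a control alignment. Aligner, peak caller, read length and handling of reads with several matches were not stated in the sources used here. The deposited signal is the authors' value per region relative to control, and was used only to describe and rank within a list. The deposited −log10 q-value was converted to q. The files hold no read counts, so depth is unknown and no interval was computed.

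Most candidate regions had 1 fixed width centred on the summit (416 bp for 92.9% of pooled candidates, but for 44.6% of IDR peaks). Positions were taken from summits. Of 31805 start codons of Ensembl release 115, 99.9% read ATG in the RefSeq WBcel235 sequence, and 0 regions passed a chromosome end. The release names hsp-16.11 and hsp-16.49 as hsp-16.1 and hsp-16.48, so all 10 symbols were matched through RefSeq symbols and WormBase IDs. Replicate summits within 100 bp were matched, and the nearest within 1000 bp was given otherwise. Motifs were searched on both strands. Every listed gene was named. Other family genes and regulators were named where they held a peak. With 1 group no test was made, and the share over all protein-coding genes stands beside counts of genes with a region. Alternatives were other windows, overlap by 1 bp, the strongest 1765 peaks or 10000 candidates, single replicates and other motif distances. The members are named in the list without a threshold on binding, but they and the other lists were chosen with earlier results of these data known. Scripts (Python 3.11.15, NumPy 2.4.6) were tested on simulated data.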

Additional observations from a re-analysis of the deposited data

How the results depend on the processing

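Of 26 alternatives, 23 left their count within 1.5 times of the reported one. Extending the window to 5000 bp upstream raised the genes with a reproducible peak from 0 to 3 (hsp-16.49, hsp-25 and hsp-43), beside 23.7% of all protein-coding genes. Keeping the strongest 10000 pooled candidates lowered the genes with a candidate from 6 to 3, beside 32.0%. They were hsp-25 and, through 1 shared region, hsp-16.2 and hsp-16.41. Searching 100 bp around summits raised those with a hypoxia core from 2 to 5 of 14, beside 37.7% of all pooled summits. IDR was not rerun on 1 replicate, so the strongest 3531 candidates of the remaining replicate stood in for peaks. Without replicate 1, 0 genes held such a region and 4 any candidate, beside 17.3% and 51.1% of all genes. Without replicate 2 the counts were 0 and 7, beside 16.6% and 59.5%. Unknown depth, the lack of a second condition and repeated sequence at 4 genes limit these counts. Candidate lists include background regions, and a region's absence at this depth does not show that HIF-1 was absent.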

Other observations

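The 2 genes listed in the annotation as F08H9.3 and F08H9.4, which RefSeq names as hsp-16.20 and hsp-16.21, held 0 candidates in the pooled list, as did hsp-12.1. The gene hsp-12.2 held 3 pooled candidates, the strongest with a signal of 41.1 in an intron, and 28.8 in replicate 2.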
